A study of Mus musculus with 6 samples.

Results

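The piRNA pathway genes are 10 genes taken by name, Piwil2, Piwil4, Mael, Tdrkh, Tdrd1, Tdrd9, Mov10l1, Pld6, Ddx4 and Gtsf1, and all 10 were found among the 25239 genes of the count table. They were followed in fully grown mouse oocytes of 2 genotypes, wild type (WT) and a Nat10 conditional knockout (cKO) in which Gdf9-cre, a recombinase driver active in oocytes, deletes the gene for the RNA acetyltransferase NAT10. Each genotype had 3 libraries, all from females given the follicle-stimulating hormone preparation PMSG between 36 and 48 h earlier. The strain and age of the females, whether the WT females carried the cre or a floxed allele, the exons deleted and the number of oocytes per library are not given in the sources used here. Separate animals behind the 3 libraries of each genotype are not stated, so the p-values reflect library-to-library spread that may be technical.

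PIWI proteins are Argonaute-family proteins of the germ line that bind piRNAs, small RNAs cut from long single-stranded precursors, and use them to recognise and silence transposons. The precursors are unwound and cut at the surface of mitochondria, and the PIWI proteins are held together with helicases and Tudor-domain scaffolds in germ granules. In mice the pathway is best known from the testis, where its loss arrests sperm formation, whereas oocytes also make small RNAs against transposons with Dicer and females lacking many of these genes are fertile.

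Library totals lay between 20167665 and 29407659 gene counts, and Nat10 itself fell from 52.5 ± 10.5 to 7.60 ± 0.41 CPM (SD, n = 3 each), so the labels held for the targeted transcript. CPM is the count scaled to library size with TMM factors. A count of 0 still allows up to 3 counts, worth 0.1 to 0.153 CPM depending on the library, for counting error only. The defining oocyte transcripts were abundant in every library, with summed levels of 8 markers of 21981 to 25691 CPM in WT and 26031 to 27597 CPM in cKO. Of those 8 markers 4 were called higher under TMM, and 0 were called higher and 2 lower after the spike-in scaling described further on. The summed level of 10 granulosa and cumulus cell markers was 79.7 to 83.9 CPM in WT and 65.5 to 68.2 CPM in cKO, with Foxl2 at most 0.288 CPM in any library. Of the 6 markers tested, 2, Inha and Hsd17b1, were called lower (log2 fold changes of -1.41 and -2.21). The others were not called and went both ways, with Fshr at 0.92, Kitl at 0.16, Cyp19a1 at -0.14 and Nr5a2 at -0.30. For Fshr every cKO library was above every WT library. The 6 theca and stroma markers summed to 17.3 to 23.2 CPM and the immune and blood markers to 2.44 to 3.79 CPM, with Adgre1, Hbb-bs and Hba-a1 at 0 throughout. Any part of these other cells in the results was not tested. In such bulk libraries fewer cells of a type and less RNA per cell cannot be told apart, and because priming was by oligo-dT, neither can a lower transcript number and a shorter poly(A) tail.

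The gene with the most change was Piwil2, 1 of the 3 PIWI genes, which was 2.78-fold higher in cKO, while the transcripts of the Tudor-domain scaffolds Tdrkh and Tdrd1 fell to 67.5% and 72.3% of WT. Gtsf1, Mael, Ddx4, Tdrd9, Mov10l1 and Pld6 were not called, and Piwil4 did not pass the filter on low counts. Of the 9 members tested, 1 rose and 2 fell, or 33.3%, against 40.2% of all 14114 tested genes (20.1% higher and 20.1% lower). The test was edgeR's quasi-likelihood F test across all genes, with calls made at an adjusted p under 0.05. The ranges of the genotypes did not overlap for those same 3 members, or 33.3% of the 9, against 52% of all tested genes (26% higher and 26% lower). With 9 genes, the share called is close to the background and is no result about the members. DESeq2's Wald test called the same 3, against 42.4% of genes (21.4% higher and 21% lower). The median log2 fold change was -0.12 over the 9 members and 0.01 over all tested genes.

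**Figure D1:**
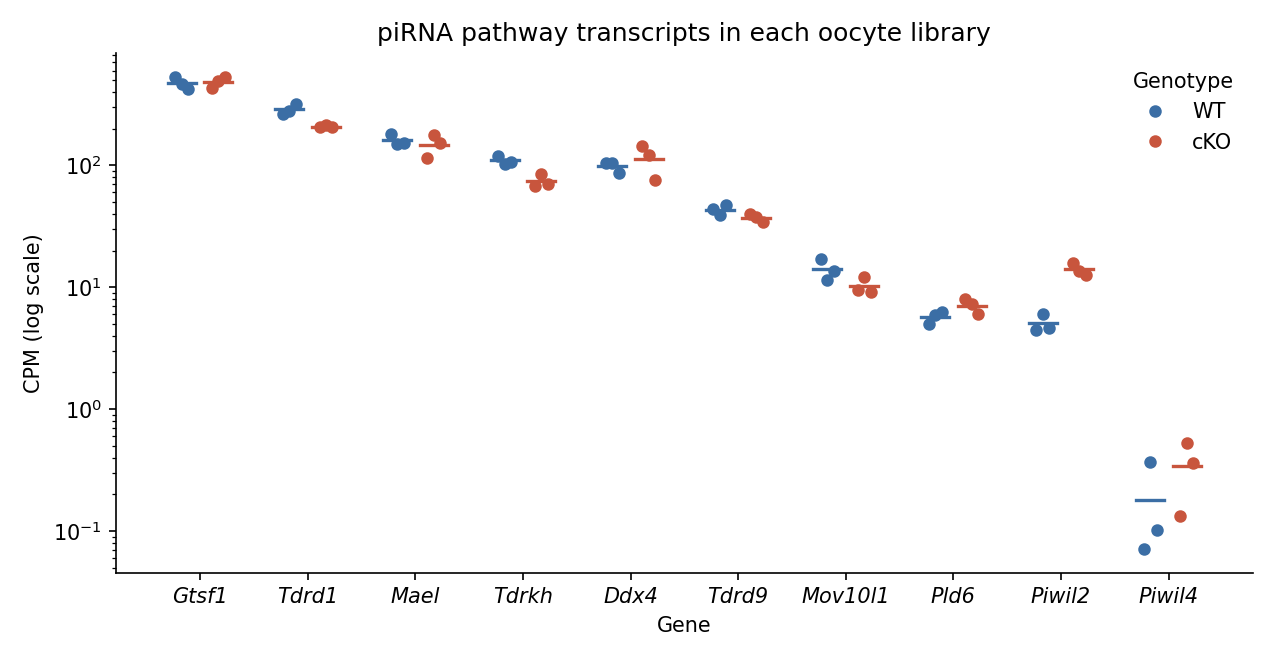
CPM on a log axis for the 10 piRNA pathway genes, 1 point per library (WT blue, cKO red), with a bar at each mean of 3 libraries. The groups separate for Piwil2 (WT at most 6.09 and cKO at least 12.7 CPM), Tdrd1 and Tdrkh, and overlap for the other 7 genes.

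Piwil2 encodes MILI, a cytoplasmic PIWI protein that cuts transposon RNA and feeds the cycle in which piRNAs are amplified. The gene lies on the minus strand of chromosome 14 (70372477 to 70436898, mm10), with 6189 bases of counted exon. Its WT libraries were at 4.46, 6.09 and 4.63 CPM and its cKO libraries at 15.9, 13.6 and 12.7 CPM. Every cKO library was above every WT library, and the gap between the groups was wider than the range within either. The log2 fold change was 1.48 ± 0.23 (SE), with a 95% interval of 0.99 to 1.97 (edgeR quasi-likelihood F test, adjusted p = 0.00032). Counting Piwil2 itself, 952 of the tested genes, or 6.75%, had a log2 fold change at least as high. The call held in all 13 alternatives tried, with log2 fold changes from 1.08 after spike-in scaling to 1.65 without WT replicate 2.

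Piwil4 encodes MIWI2, the nuclear PIWI protein that directs DNA methylation at transposons in fetal male germ cells. It lies on chromosome 9 (14701776 to 14740672) and had 2, 8 and 2 counts in the WT libraries and 4, 15 and 10 counts in the cKO libraries. The groups overlapped, 2 WT libraries were under the limit of 3 counts, and the gene did not pass the filter on low counts. It entered 3 alternative fits and was called in none of them. Its log2 fold change was 0.94 with no filter (95% interval -1.47 to 3.35, adjusted p = 0.59), 1.95 without WT replicate 2 (-0.64 to 4.55, adjusted p = 0.236) and 0.66 without WT replicate 3 (-1.70 to 3.02, adjusted p = 0.663). At so few counts all 3 intervals are wide and include 0.

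Of the 3 members that make and trim piRNAs, Tdrkh was called lower, and Mov10l1 and Pld6 were not called. Tdrkh encodes a Tudor and KH-domain protein of the mitochondrial surface on which PIWI proteins are loaded while the ends of their piRNAs are trimmed. It lies on chromosome 3 (94413244 to 94432650) and stood at 119, 103 and 107 CPM in WT and at 68.0, 84.5 and 70.1 CPM in cKO. The groups did not overlap, and the log2 fold change was -0.57 ± 0.13 (SE), with a 95% interval of -0.86 to -0.28 (edgeR quasi-likelihood F test, adjusted p = 0.00472).

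Mov10l1 encodes the RNA helicase that hands precursors to the processing machinery. It lies on chromosome 15 (88982994 to 89055152) and stood at 17.1, 11.5 and 13.5 CPM in WT and at 9.54, 12.1 and 9.21 CPM in cKO. A single cKO library lay within the WT range, and the log2 fold change of -0.45 had a 95% interval of -0.93 to 0.02. Pld6, on chromosome 11 (59783893 to 59787657), encodes a mitochondrial phospholipase D family protein, the mouse counterpart of the fly nuclease Zucchini. It stood at 4.95, 5.90 and 6.31 CPM in WT and at 7.98, 7.26 and 6.01 CPM in cKO, and its log2 fold change of 0.31 had an interval of -0.21 to 0.83. Neither gene passed the test (adjusted p = 0.121 and 0.333). The Mov10l1 interval still includes a fall as large as that of Tdrkh, and the Pld6 interval does not.

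Gtsf1 encodes a small zinc-finger protein that binds PIWI proteins and speeds their cutting of target RNA. It lies on chromosome 15 (103402459 to 103430427) and was the most abundant member per kb of exon. It stood at 530.2, 464 and 420.1 CPM in WT and 429, 496 and 535 CPM in cKO. The ranges of the groups were nearly the same. Its log2 fold change of 0.05 had a 95% interval of -0.22 to 0.31, which leaves out the size of the change in Piwil2. The sign of so small a value was not fixed, since it was -0.24 after a correction for transcript length and -0.38 after spike-in scaling, neither of them called.

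Of the 4 germ-granule members Tdrd1 was called lower, and the other 3 were not called. Tdrd1, on chromosome 19 (56826209 to 56870012), encodes a scaffold with several Tudor domains that binds methylated arginines of MILI. It stood at 264, 281 and 318 CPM in WT and at 207, 213 and 205 CPM in cKO. The cKO libraries lay close together and all below WT. This was a log2 fold change of -0.47 ± 0.11 (SE), with a 95% interval of -0.71 to -0.22 (edgeR quasi-likelihood F test, adjusted p = 0.00581). The falls of Tdrkh and Tdrd1 were each called in all 13 alternatives, but they were moderate ones for this comparison. Of all tested genes, 21.0% had a log2 fold change as low as Tdrkh or lower, and 24.9% as low as Tdrd1 or lower.

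Mael encodes a germ-granule protein with an HMG box that is needed for transposon silencing. It lies on chromosome 1 (166201385 to 166238744) and stood at 179, 151 and 153 CPM in WT and at 114, 179 and 152 CPM in cKO. Tdrd9, on chromosome 12 (111971559 to 112068854), encodes a helicase with a Tudor domain that partners MIWI2. It stood at 43.6, 39.3 and 47.2 CPM in WT and at 39.6, 37.7 and 34.6 CPM in cKO. Both genes had overlapping groups, with log2 fold changes of -0.12 (95% interval -0.46 to 0.22) and -0.22 (-0.54 to 0.10). Neither was called (adjusted p = 0.567 and 0.267).

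Ddx4 encodes the Vasa helicase, a general marker of germ cells. It lies on chromosome 13 (112598333 to 112652310) and stood at 104, 104 and 86.0 CPM in WT and at 145, 121 and 75.4 CPM in cKO. The cKO libraries thus fell on both sides of the WT range, with replicate 3 the lowest of all 6. The log2 fold change was 0.21 with a 95% interval of -0.21 to 0.63 and was not called (adjusted p = 0.411). Without cKO replicate 3 it was 0.44 and called (adjusted p = 0.0348), and without cKO replicate 1 it was 0.00, so single libraries decided this value.

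TMM sets each gene against the bulk of the others. The ERCC spike-in RNA gave another scale, because endogenous reads per ERCC read were 288 to 370.0 in WT and 214 to 270 in cKO. Scaled by it, the median log2 fold change over all genes was -0.39, and 42.6% of genes were then called (8.37% higher and 34.2% lower). Because the number of oocytes per library is not given, this shift cannot be read as RNA per oocyte. On the spike-in scale 1 member rose and 5 fell. Piwil2 was still higher, with a log2 fold change of 1.08 (adjusted p = 0.00282), and Tdrkh and Tdrd1 were at -0.98 and -0.86. Mov10l1 (-0.86), Tdrd9 (-0.60) and Mael (-0.55) were called lower as well. Relative to the shift of -0.39, those 3 changes were close to their values under TMM. With library totals alone the median of all genes was 0.12, and 1 member was higher and 2 lower, as under TMM, against 40.4% of genes (24.4% higher and 16% lower).

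Fold changes also went with transcript length. The median log2 fold change ran from 0.23 in tested genes with exonic lengths up to 1579 bases to -0.19 in those above 5060 bases. Of the members, 4 were shorter than the median tested gene of 2934 bases. Piwil2, at 6189 bases the longest member, rose against that trend, and its log2 fold change was 1.63 after the trend was removed. Tdrkh (4153 bases) and Tdrd1 (5443 bases) lay on the long side, and their values after that correction were -0.46 (adjusted p = 0.0176) and -0.32 (adjusted p = 0.0235). With the correction 1 member was again higher and 2 lower, against 38.8% of all genes (19.2% higher and 19.6% lower).

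**Figure D2:**
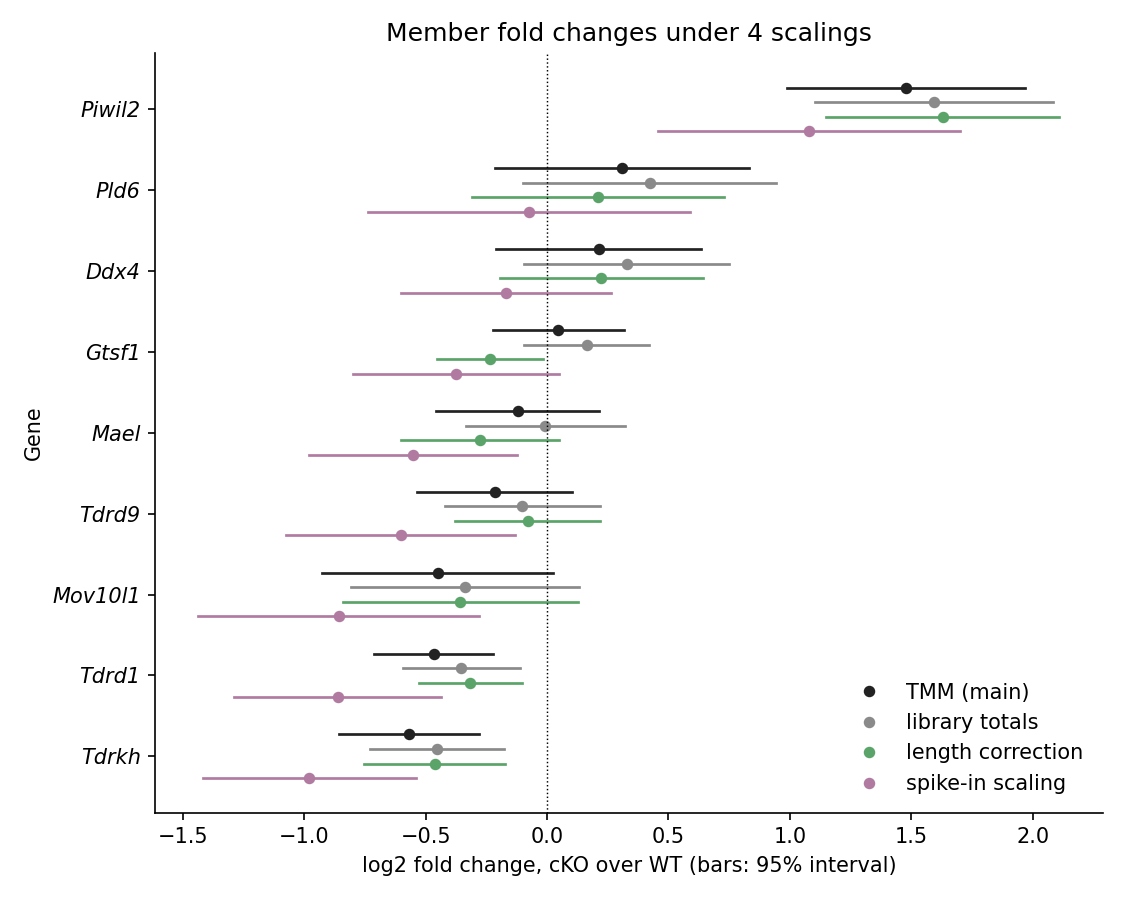
Log2 fold change of cKO over WT with its 95% interval for the 9 members tested, under TMM, library totals, a length correction and spike-in scaling. The points of Piwil2 stay above 1 under all 4 and are lowest under spike-in scaling (1.08). Its interval starts at 0.99 under TMM and lower than that under spike-in scaling. The points of Tdrkh and Tdrd1 stay below 0. The intervals of the other 6 genes cross 0 under TMM. Of those, Mov10l1, Tdrd9 and Mael are called lower under spike-in scaling.

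Levels were compared between genes only per kb of counted exon. This length joins all annotated isoforms, so a gene that uses a short isoform is understated. Per kb the members spanned a wide range in WT, from 653 ± 77 CPM per kb (SD, n = 3) for Gtsf1 to 0.055 ± 0.050 CPM per kb for Piwil4. Gtsf1 was above 99.4% of the tested genes, Mael (104 ± 10 CPM per kb) above 93.3%, Tdrd1 (52.9 ± 5.1) above 86.9%, Ddx4 (34.5 ± 3.7) above 81.5% and Tdrkh (26.5 ± 2.0) above 77.9%. Tdrd9 followed at 9.01 ± 0.82, Mov10l1 at 3.47 ± 0.69, Pld6 at 2.92 ± 0.35 and Piwil2 at 0.82 ± 0.15 CPM per kb. In that order the only neighbours whose WT ranges overlapped were Mov10l1 and Pld6.

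The PIWI genes were thus the scarcest members, and Gtsf1, Mael, Tdrd1 and Ddx4 the most abundant. Piwil1, the remaining PIWI gene and no member, was at 4.17 ± 0.53 CPM per kb in WT and 2.64 ± 0.50 in cKO, above Piwil2 in every WT library and within its range in part in cKO. Piwil2 stood above 22.5% of tested genes per kb in WT and above 36.3% in cKO, where its range (2.05 to 2.57 CPM per kb) overlapped that of Mov10l1 (2.27 to 2.99). In cKO the ranges of Ddx4 and Tdrd1 overlapped too. Ratios taken within a library do not depend on the scaling between libraries. Per kb, Piwil2 amounted to 1.48%, 1.91% and 1.28% of Tdrd1 in the WT libraries and to 6.78%, 5.63% and 5.44% in the cKO libraries. Against Tdrkh the same ratio was 2.50%, 3.95% and 2.90% in WT and 15.7%, 10.8% and 12.2% in cKO. These pairs were picked for their opposite changes, so the ratios describe the libraries and are no further test.

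**Figure D3:**
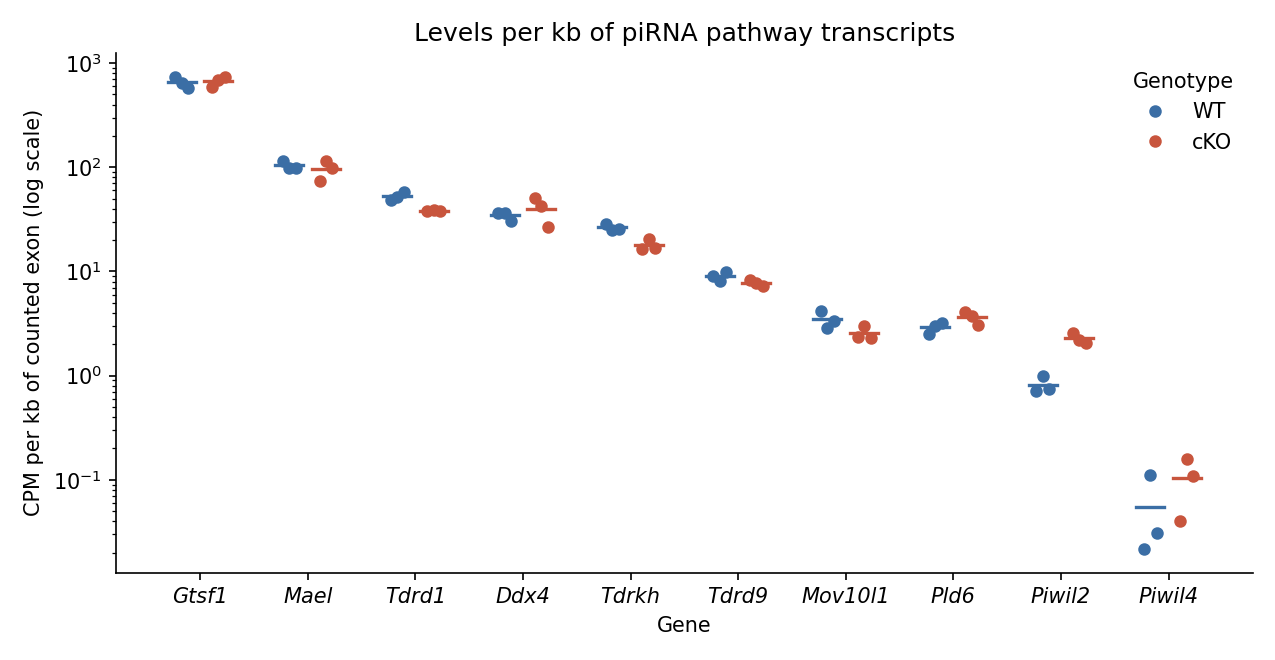
CPM per kb of counted exon on a log axis for the 10 members in the order of their WT means, 1 point per library with a bar at each mean of 3. Gtsf1 lies between 582 and 741 CPM per kb in every library, and Piwil2 and Piwil4 close the order in both genotypes.

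Most of the promoters read hold the same short sequence. RefSeq windows from 250 bases before to 50 after the annotated start (GRCm38.p6, the build of mm10) were at hand for 9 of the 10 members, all but Piwil2, and the most upstream window of each was read. A set of 3 motifs were searched on both strands, and matches of different motifs can share no more than an end base. They were CACGTG, the E-box bound by MAX-family factors, TCCCGC, a core of E2F sites, and AACNG, which contains the core of MYB sites. CACGTG was present in 6 of the 9 member windows (Ddx4, Mael, Mov10l1, Pld6, Tdrd1 and Tdrd9), against 7.2% of all promoter windows, 10.0% of the windows of tested genes and 11.5% of those tested genes whose windows hold at least as many CG pairs as the lowest member. TCCCGC was in 2 of 9 member windows, or 22.2%, against 20% of all windows, 33.7% of those of tested genes and 41.9% of those with at least as many CG pairs. AACNG was in 8 of 9, against 80.3%, 78.3% and 76.6%. Of the windows of 18 further piRNA genes, a list described below, 4 (22.2%) held CACGTG. Whether the lists differ in this was not tested. A match is a description of the letters and not a binding site. The stretches that follow show each CACGTG in capitals, with up to 20 bases on either side, so that the flanks can be compared.
Ddx4 (chr13:112652314-112652359, minus strand): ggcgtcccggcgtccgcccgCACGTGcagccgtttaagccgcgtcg
Mael (chr1:166238942-166238987, minus strand): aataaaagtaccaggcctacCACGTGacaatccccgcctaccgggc
Mov10l1 (chr15:88982744-88982773, plus strand): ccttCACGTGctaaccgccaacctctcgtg
Pld6 (chr11:59787665-59787710, minus strand): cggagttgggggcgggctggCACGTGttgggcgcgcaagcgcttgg
Tdrd1 (chr19:56826178-56826223, plus strand): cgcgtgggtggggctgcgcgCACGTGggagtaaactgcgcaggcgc
Tdrd9 (chr12:111971374-111971419, plus strand): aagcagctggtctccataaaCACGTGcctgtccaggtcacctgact
Tdrd9 (chr12:111971444-111971489, plus strand): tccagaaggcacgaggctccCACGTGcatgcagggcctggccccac
The first base of the E-box stood 29 bases before the annotated start in Ddx4, 223 in Mael, 246 in Mov10l1, 33 in Pld6, 11 in Tdrd1, and 165 and 95 in Tdrd9. The Mov10l1 stretch is shorter because it meets the edge of the window. Of the 6 genes with the E-box, Tdrd1 alone was called, against 40.2% of all tested genes (20.1% higher and 20.1% lower). With 6 genes this is no result about the E-box, and Piwil2 had no window to read.

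The full windows of Tdrd1 and Tdrkh are shown because these are the members that fell, 1 with the E-box and 1 without it. Capitals mark every match to the 3 motifs on either strand.
Tdrd1 (chr19:56825959-56826258, plus strand): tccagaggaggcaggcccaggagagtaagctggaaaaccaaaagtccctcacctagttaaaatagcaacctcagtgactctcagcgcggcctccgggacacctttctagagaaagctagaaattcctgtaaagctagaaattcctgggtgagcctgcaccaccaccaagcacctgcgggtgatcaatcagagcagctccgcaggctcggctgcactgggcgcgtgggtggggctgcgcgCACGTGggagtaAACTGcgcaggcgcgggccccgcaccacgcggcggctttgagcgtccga
Tdrkh (chr3:94412994-94413293, plus strand): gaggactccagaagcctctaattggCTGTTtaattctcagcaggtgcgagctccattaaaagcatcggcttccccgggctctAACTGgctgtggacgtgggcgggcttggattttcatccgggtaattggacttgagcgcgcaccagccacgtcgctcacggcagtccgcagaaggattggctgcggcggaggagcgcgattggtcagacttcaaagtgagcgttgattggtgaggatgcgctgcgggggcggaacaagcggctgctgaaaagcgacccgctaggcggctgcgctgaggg
The Tdrd1 window holds the E-box just before a MYB core, and the Tdrkh window holds only MYB cores, 2 of them. Member windows held 52.7% to 72.0% GC, and their median count of CG pairs, 20, was the same as that of tested genes (7 over all genes).

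Features of the members' transcripts were read as well. No member shared counted exon bases with another gene of the table, so overlap between strands does not bear on their counts. In the annotated transcript nearest in length to the counted exons, 50-base stretches found in another gene's transcripts made up 2.24% of Piwil4 and 0.1% of Tdrd1, and none of the other 8. For some members that transcript was much shorter than the counted exons, as in Pld6 (948 against 1959 bases) and Tdrkh (2652 against 4153 bases). The remaining exon bases were not read for shared stretches or base content. Transcript GC content ranged from 41.1% in Ddx4 to 61.5% in Pld6. Its median was 48.2% over the 9 tested members and 49.9% over 13055 tested genes with a transcript. Ddx4 was low in cytosine, the base that NAT10 acetylates, at 17.5% of its bases, below all but 1.3% of those genes.

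A list of 27 further piRNA genes was read from the same fit, of which 24 were tested, and Spocd1, Dnmt3c and Tdrd15 are not analysed here. Of the 24, 7 rose and 4 fell, or 45.8%, against 40.2% of all tested genes (20.1% higher and 20.1% lower). Their median log2 fold change was 0.04. The share called in either direction, too, is near the background. After spike-in scaling 3 of the 24 were called higher and 7 lower, against 8.37% higher and 34.2% lower of all tested genes. On that scale their median log2 fold change was -0.37, against -0.39 over all tested genes.

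Gpat2, which encodes a mitochondrial protein of the acyltransferase family that binds MILI, went from 7.66, 5.12 and 4.22 CPM to 20.4, 14.0 and 15.4 CPM, a log2 fold change of 1.54 ± 0.26 (SE). Prmt5, the gene of the enzyme that methylates PIWI arginines so that Tudor domains can bind them, went from 22.6, 22.1 and 27.2 CPM to 52.2, 51.5 and 52.1 CPM, or 1.12 ± 0.15 on the log2 scale. The groups of both genes were far apart (edgeR quasi-likelihood F test, adjusted p = 0.000596 and 0.000138), and both calls held in all 13 alternatives. The Gtsf1 paralogs Gtsf2 and Gtsf1l rose from 3.25 ± 1.16 to 8.27 ± 3.05 CPM and from 1.75 ± 0.50 to 4.22 ± 0.34 CPM (SD, n = 3). In WT they stood at 4.50 and 1.99 CPM per kb, far below Gtsf1 at 653. Gtsf2 was above 48.3% of tested genes per kb in WT and Gtsf1l above 35.4%. Tex19.1, a germ-cell gene that restrains transposons, rose from 219 ± 19 to 373 ± 49 CPM. After spike-in scaling the calls of Gtsf1l (0.90) and Tex19.1 (0.39) ended.

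The Tudor-domain genes Tdrd5 and Tdrd7 also rose, by 0.38 and 0.59 on the log2 scale, but these calls were narrow (edgeR quasi-likelihood F test, adjusted p = 0.0252 and 0.0467). The adjusted p of Tdrd5 was 0.0732, 0.101 and 0.0652 without WT replicate 1, cKO replicate 1 or cKO replicate 2. That of Tdrd7 passed only without WT replicate 3 among the 6 fits that leave out a library. After spike-in scaling Tdrd5 stood at -0.02 and Tdrd7 at 0.20, neither called.

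The falls were of about the size seen in Tdrkh and Tdrd1. Exd1 and Tdrd12 encode partners in a complex that acts in MILI-dependent amplification. Exd1 fell from 75.5, 66.7 and 77.9 CPM to 53.3, 51.2 and 41.1 CPM, and Tdrd12 from 410.1, 418 and 330.2 CPM to 255, 304 and 242 CPM. The groups did not overlap for either gene. Their log2 fold changes were -0.60 ± 0.15 and -0.53 ± 0.13 (SE), with adjusted p of 0.0062 and 0.0063, and Tdrd12 was no longer called after the length correction (-0.38, adjusted p = 0.0506). Rnf17, another Tudor-domain gene, fell to 68.7% of WT and Piwil1, the gene of the PIWI protein MIWI of postnatal testis, to 63.2%. Rnf17 lost its call after the length correction (adjusted p = 0.0874) and without WT replicate 1, WT replicate 2 or cKO replicate 3 (0.0921, 0.0863 and 0.0771). Piwil1 lost its call with library totals alone (0.0549) and in 5 of the 6 fits that leave out a library, with adjusted p from 0.0232 to 0.103 over the 6.

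The remaining 13 genes did not pass the test. The most abundant of them per kb were Henmt1, whose product methylates the ends of piRNAs, and Asz1, which encodes a mitochondrial scaffold of the germ granule. They stood at 172 ± 7 and 134 ± 16 CPM in WT and at 174 ± 30 and 138 ± 10 CPM in cKO, with 95% intervals of their log2 fold changes of -0.27 to 0.31 and -0.24 to 0.31. Counts of Henmt1 are uncertain, as 15.4% of the 50-base stretches of its transcript are also found in the transcript of Gm9857.

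**Figure D4:**
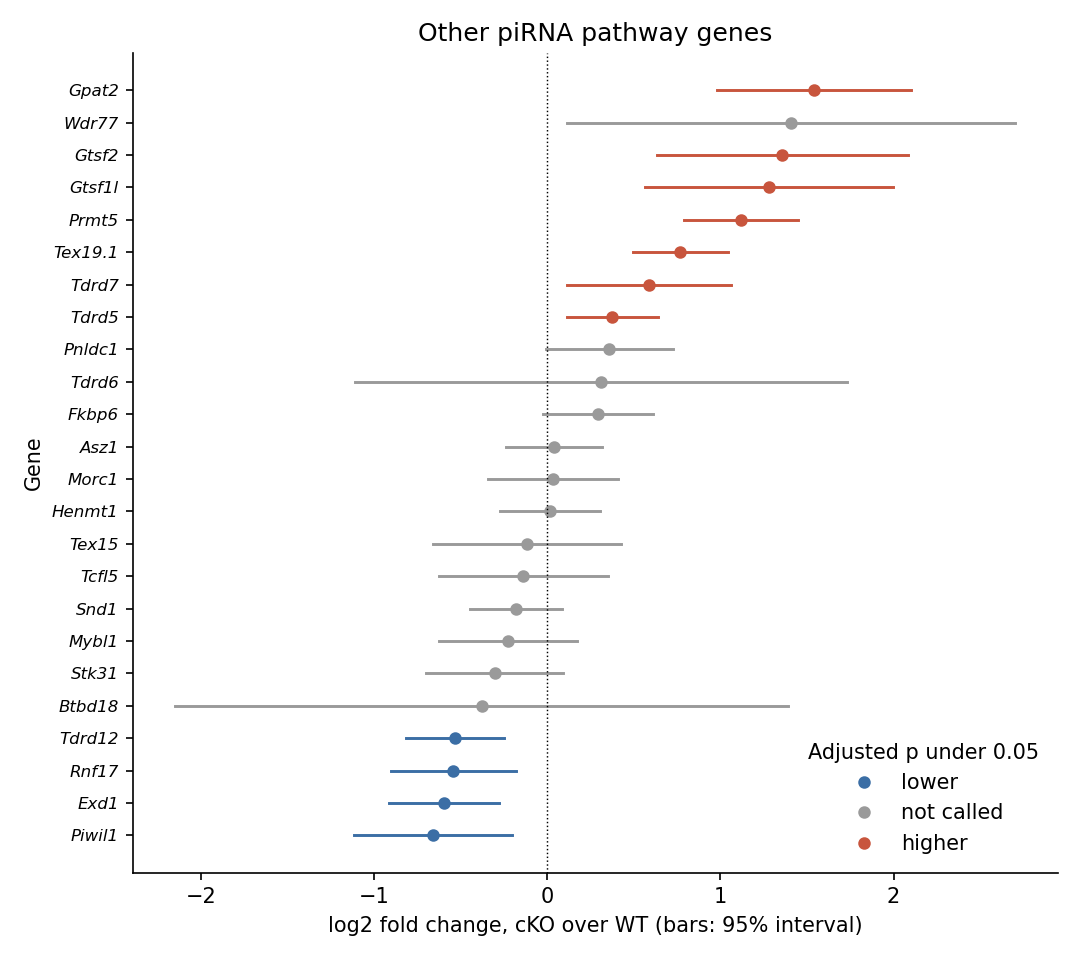
Log2 fold change of cKO over WT with its 95% interval for the 24 further piRNA pathway genes tested, coloured by call at an adjusted p under 0.05. The 7 called higher reach 1.54 (Gpat2), and the 4 called lower lie between -0.66 (Piwil1) and -0.53 (Tdrd12).

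The other small RNA machinery of the oocyte was read beside the piRNA genes. Of 10 Argonaute, Dicer and microprocessor genes 9 were tested. Of those, 0 rose and 3 fell, or 33.3%, against 40.2% of all genes (20.1% higher and 20.1% lower). Dicer1, the gene of the enzyme that makes small interfering RNAs, stood at 232, 282 and 296 CPM in WT and at 194, 182 and 162 CPM in cKO, and Ago2 and Ago3 fell to 56.7% and 55.8% of WT. The 3 calls held in all 13 alternatives. Whether the piRNA list differs from this list was not tested. Of their promoter windows, 0 of 9 held CACGTG, against 6 of 9 for the members and 4 of 18 for the further piRNA genes.

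Some transcripts followed the leading members closely over the 6 libraries. Likeness was the root-mean-square difference of log2 CPM after centring each gene. Nearest to Gtsf1 were Gkap1, Cmc1 and Ift43 (0.0442, 0.0463 and 0.0526), nearest to Mael were Odr4, Ptpre and Josd2 (0.0572, 0.0606 and 0.0703), and nearest to Tdrd1 were Alms1, Zkscan17 and Ino80 (0.0261, 0.0394 and 0.0399). These distances are a description over 6 values per gene, with no test. The genes near Tdrd1 were picked on the same libraries in which Tdrd1 fell. Their own falls and calls therefore follow from that choice and are no further result. Among the 9 nearest genes, Alms1 (-0.50) and Zkscan17 (-0.43) were called lower. Zkscan17 was called in all 13 alternatives and Alms1 in 7 of them, since it lost its call with library totals (adjusted p = 0.0667), after the length correction (0.136) and without WT replicate 3 or any of the cKO libraries (0.0593 to 0.0639). Ino80 (-0.42, adjusted p = 0.0515) was called in 3 of the 13, which were spike-in scaling (0.00441), the DESeq2 Wald test (0.0325) and the replicate block (0.045).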

How the data were processed

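Poly(A) RNA of fully grown oocytes was made into 6 Smart-seq2 libraries (3 WT, 3 cKO), a protocol without molecular identifiers or strand. Groups and replicate numbers come from the sample titles. The authors deposited raw counts per gene. STAR 2.7.10a, featureCounts, Trim Galore 0.6.7 and the mm10 build are listed in the submitters' processing notes, while strand and multi-mapping settings are not given in the sources used here. A second deposited table gives the fraction of reads mapped and the fraction from ERCC spike-in RNA per library, with a denominator that is not stated.

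Genes passing edgeR's filterByExpr (minimum count 10) were tested with edgeR 4.0.16 in R 4.3.3 (TMM factors, quasi-likelihood F test, no block, Benjamini-Hochberg over 14114 genes, two-sided, threshold 0.05). The standard error is the size of the log2 fold change divided by the square root of F. Alternatives were DESeq2 size factors, a DESeq2 1.42.0 Wald test, library totals, spike-in scaling (endogenous reads per ERCC read), no filter, a lowess length trend (span 0.3) removed as an offset, a replicate block, and leaving out each library. Text naming followed a rule: all members, Nat10, called genes of the lists, the 2 most abundant uncalled further piRNA genes, called markers of other cells, and the 3 nearest profiles of the 3 members highest per kb. The uncalled granulosa markers that were tested are named beside the called ones. The members and lists were chosen with earlier results of these data known. Transcripts came from GENCODE M21 and promoters from RefSeq, both on GRCm38.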

Additional observations from a re-analysis of the deposited data

How the results depend on the processing

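The count of all genes called stayed within 1.5 times of the 5674 in all alternatives. Of the 9 members tested, 1 was higher and 2 lower in the analysis as reported, against 20.1% higher and 20.1% lower of all tested genes. The count lower was 5 after spike-in scaling, where 34.2% of all tested genes were called lower. When single libraries were left out, the count higher ranged from 1 to 2. It was 2 without cKO replicate 3, where 2181 of 14387 tested genes were called higher. Piwil2, Tdrkh and Tdrd1 kept their direction and call in all 13 alternatives, with log2 fold changes of 1.08 to 1.65, -0.98 to -0.45 and -0.86 to -0.32. The sign of some uncalled genes turned. After spike-in scaling Pld6 was -0.0741, Gtsf1 -0.38, Ddx4 -0.17, Henmt1 -0.37, Asz1 -0.38, Gkap1 -0.42, Cmc1 -0.40 and Ift43 -0.32, and Tdrd5, called higher under TMM, was -0.0211. After the length correction Gtsf1 was -0.24, Henmt1 -0.0586, Asz1 -0.0871, Gkap1 -0.15, Cmc1 -0.17 and Ift43 -0.15, and with library totals Odr4 was 0.0031. Leaving out single libraries, Gtsf1 ranged from -0.0334 to 0.16, Mael from -0.25 to 0.0375, Henmt1 from -0.13 to 0.13, Asz1 from -0.0604 to 0.11, Gkap1 from -0.0949 to 0.14, Cmc1 from -0.0475 to 0.10 and Odr4 from -0.24 to 0.0218. Beyond the scaling itself, the cause was not tested. The replicate numbers are shared by the genotypes, and deviations of same-numbered libraries correlated at -0.02, 0.06 and 0.106. WT replicates 2 and 3 correlated best with their own number, and WT replicate 1 with another (0.065 with cKO replicate 2). Values this small do not settle whether the numbers pair the libraries, so the block was used as an alternative only. With the replicate block 3089 genes were called higher and 3110 lower, and the members' calls were again 1 higher and 2 lower. Piwil4 was tested in 3 alternatives and called in 0 of them, and intervals cover the spread of 3 libraries per genotype.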
